A study of Mus musculus with 40 samples.

Results

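The genes described are 10 genes that mark fat cells: Adipoq, Fabp4, Car3, Plin1, Cfd, Retn, Cidec, Lipe, Ucp1, and Cidea. They were chosen by symbol, as a list of genes for white and thermogenic (brown-type) fat. No rule on their values was used, but earlier results of these data were known. All 10 were listed in both experiments, among 14424 protein-coding genes in the genotype experiment and 13741 in the cyclosporin A (CsA) experiment, and all 10 passed the filter on low values. Aortic RNA of male mice was sequenced after a short infusion of angiotensin II (Ang-II), the peptide hormone that constricts arteries. The study asked which genes follow Ang-II through calcineurin (Cn), a calcium-dependent phosphatase, and whether its enzymatic activity is needed. In the genotype experiment every mouse had received tamoxifen (1 mg daily for 5 days) 6 weeks before baseline pressures were taken. The control mice (Cn-Ctl, labelled CnB1-flox;Myh11-CreERT2-neg) carried floxed CnB1, the Cn regulatory subunit gene, and no Cre, and SM-Cn-/- mice carried the same allele with the tamoxifen-inducible Cre of Myh11, a smooth muscle gene, so that other cells of the aorta keep CnB1. In the CsA experiment WT C57BL/6J mice were compared with WT mice that had carried a minipump with CsA, an inhibitor of Cn phosphatase activity, for 5 days. The WT mice were operated on as well but received no pump at that stage, so CsA and the presence of a pump cannot be told apart. Ang-II was delivered from a minipump (1 µg/kg/min) over 2, 6, or 24 h in the genotype experiment and over 2 or 24 h in the CsA experiment, beside untreated mice of each kind. Each library is a pool of 3 aortas, and a group holds 3 libraries, except for untreated Cn-Ctl and Cn-Ctl at 24 h, which hold 2 each. Treated Cn-Ctl, WT, and CsA mice were kept only with a systolic pressure above 130 mmHg, a limit that was not applied to SM-Cn-/- mice. Per the methods, SM-Cn-/- mice whose CnB1 deletion was not found by PCR on a piece of the aorta were removed, as were CsA mice with no sign of Cn inhibition in the thymus.

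Fat cells store triglyceride in lipid droplets and release it as fatty acids, and they secrete hormones such as adiponectin. The fat around the mouse thoracic aorta resembles brown fat, in which Ucp1 uncouples mitochondrial respiration to make heat. Per the labels, the perivascular tissue and the adventitia were pulled off the aortas with forceps before RNA extraction. In such bulk samples, more fat cells left on the aortas and more RNA of these genes per fat cell cannot be told apart.

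Libraries held 2.73 M to 10.25 M assigned reads in the genotype experiment and 18.98 M to 38.9 M in the CsA experiment. Signal, the unit of the tables, is close to CPM, and a member's lowest value rested on 55 reads (Retn) in the genotype experiment and 158 reads (Retn) in the CsA experiment. The tissue label was checked against smooth muscle markers, which were high throughout: the 6 smooth muscle genes summed to a signal of 16006 to 48686 a library. Ppp3r1, the gene for CnB1, read 45.7 to 134 (median 85.6) in the 10 Cn-Ctl libraries and 41.8 to 118 (median 76.3) in the 12 SM-Cn-/- libraries, so the 2 genotypes overlapped for the targeted gene in these values, which count reads over the whole gene and all cell types of the aorta. The deletion itself was checked by the study on DNA of the aortas used.

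Together the 10 genes made up 0.105% to 0.593% of the signal of a library in the genotype experiment and 0.111% to 1.00% in the CsA experiment, from a summed signal of 1083 to 5736 and of 1039 to 9540. No library lacked them. The lowest library of the CsA experiment was an untreated WT library, the highest an untreated CsA library, and the ratio between them was 9.18. In the genotype experiment the highest library was untreated SM-Cn-/- replicate 1, the lowest Cn-Ctl replicate 2 of 6 h, and their ratio was 5.30.

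**Figure D1:**
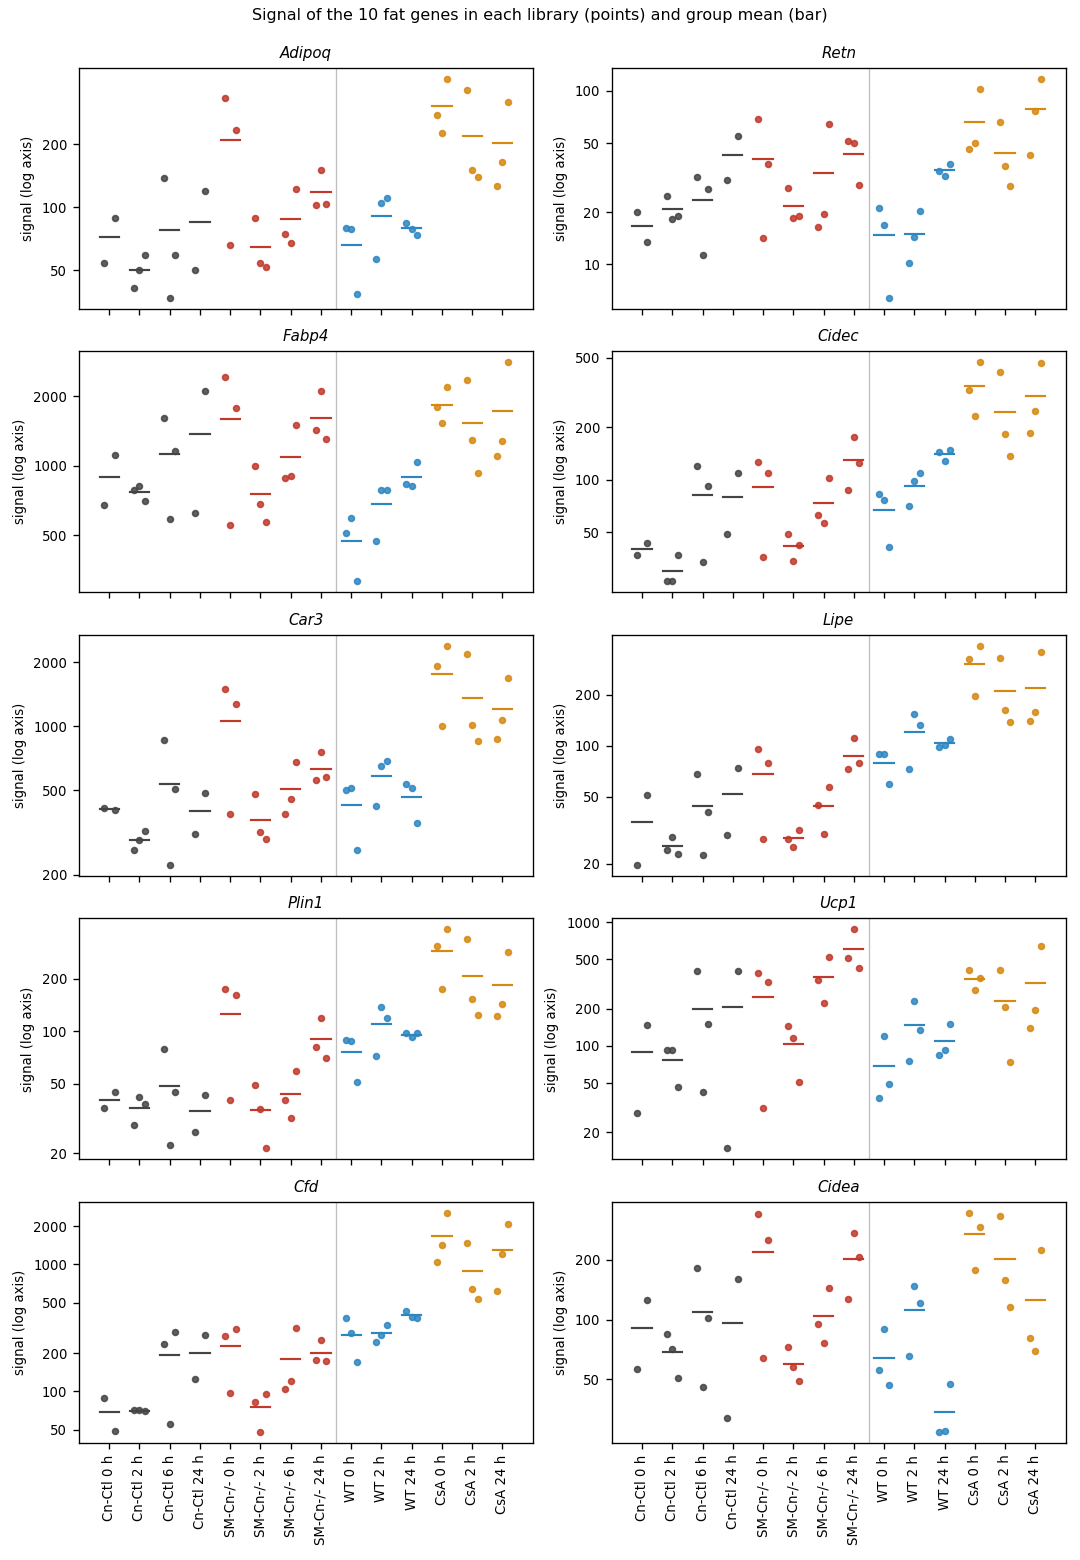
Signal (log axis, close to CPM) of each of the 10 genes in each library (points) with the mean of the group (bar). The gray line parts the genotype experiment (left) from the CsA experiment (right), which were normalized separately. Untreated CsA libraries lie above untreated WT libraries for all 10 genes, and the 3 untreated SM-Cn-/- libraries are spread from 66.0 to 332 for Adipoq.

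The 10 genes cover the steps of fat cell biology. Adipoq (chr16:23146536-23158028, GRCm38, as all positions here) encodes the hormone adiponectin. Retn (chr8:3655770-3660110) encodes resistin, a second secreted product of mouse fat cells, and Cfd (chr10:79890853-79892655) encodes adipsin, the complement factor D that fat cells secrete. Fabp4 (chr3:10204088-10208576) encodes a fatty acid carrier of the cytoplasm that endothelial cells and macrophages also make. Plin1 (chr7:79720218-79732903) coats the lipid droplet, Cidec (chr6:113424634-113435760) fuses droplets into larger ones, and Lipe (chr7:25379527-25398710) is hormone-sensitive lipase, which cuts diglycerides. Car3 (chr3:14863512-14872523) is carbonic anhydrase 3, abundant in fat and in slow skeletal muscle. Ucp1 (chr8:83290352-83298452) is the uncoupling protein of brown fat, and Cidea is the droplet protein of the same family as Cidec that is typical of brown fat. Per kilobase of annotated exon, the untreated WT libraries ranked Cfd first with a median signal of 312, then Car3 (175) and Fabp4 (114), and placed Plin1 (18.9), Lipe (15.1), and Retn (10.7) last. Adipoq (57.2), Cidea (49.9), Cidec (41.2), and Ucp1 (29.8) stood between and overlapped each other, as did the last 3. Car3 overlapped Fabp4, and Cfd lay just above both without overlap. In untreated Cn-Ctl aortas, Fabp4 (199) and Car3 (143) came first and Lipe (6.03) last, and Cfd stood behind them and Cidea at 74.3. The length used joins the exons of all annotated transcripts. For Fabp4 it is 4489 bases, the whole span of the gene, so its level per kilobase may be too low and its place depends on this length. Without division by length, the median signal in untreated WT was 510 for Fabp4, 503 for Car3, and 288 for Cfd. The genotype and CsA tables were normalized separately, so these orders are given side by side.

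The fat genes rose and fell together from library to library, both across and within groups. Across the 22 libraries of the genotype experiment, Pearson's r of log2 signal with Adipoq was 0.96 for Car3 (Spearman's rho 0.93, r = 0.92 without the 2 libraries farthest from the median of Adipoq) and 0.93 for Plin1 (rho 0.88, r = 0.86 without those 2), and it was lowest for Cfd (0.73, rho 0.69, r = 0.68 without those 2). Of deviations from the group means, r with Adipoq lay between 0.70 and 0.95 for the other 9 genes. Across the 18 libraries of the CsA experiment, r lay between 0.84 (Cidea) and 0.98 (Plin1), and of deviations from the group means between 0.72 and 0.97. These are descriptions, since the libraries share their groups and their scaling. The ratio of Car3 to Adipoq, the pair of highest r in the genotype experiment, stayed between 4.06 and 8.58 over all 40 libraries. Adipoq itself spanned 9.00-fold and 10.7-fold. Other pairs were looser: the ratio to Adipoq ran from 0.137 to 0.611 for Retn, from 0.322 to 2.06 for Cidea, and from 0.294 to 5.82 for Ucp1. Ucp1 had the widest span, 59.2-fold in the genotype experiment, from 14.8 to 875, and these extremes were Cn-Ctl replicate 2 and SM-Cn-/- replicate 2, both at 24 h of Ang-II.

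Genes outside the list that followed Adipoq most closely included genes of lipid handling. In the genotype experiment these were Prkar2b (r = 0.94), a regulatory subunit of protein kinase A, the adiponectin receptor Adipor2 (0.94), the amino acid transporter Slc36a2 (0.94), and Dgat2 (0.93), which makes triglyceride. In the CsA experiment they were the fat phospholipase Pla2g16 (0.99), Pparg (0.98), the master transcription factor of fat cells, pyruvate carboxylase (Pcx, 0.98), Gstz1 (0.98), and Arxes2 (0.98). They are among the 5 non-members of highest r in each experiment, out of 14423 and 13740 protein-coding genes, over 22 and 18 libraries.

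Promoter windows are shown for 3 members because their levels moved together while Ucp1 and Cidec part from Adipoq in comparisons given further on. Each window is the 250 bases before the RefSeq start site (GRCm38.p6), 5′ to 3′ on the strand of the gene, and 7 of the 10 genes had such an entry. The Cidec window lies inside the span of the gene in GENCODE, which holds a longer transcript. Capitals mark matches on either strand to AGGTCA, a nuclear receptor site, to TTGCNNAA, a C/EBP-type motif, or to the box CCAAT.
Adipoq (plus strand, chr16:23146286-23146535): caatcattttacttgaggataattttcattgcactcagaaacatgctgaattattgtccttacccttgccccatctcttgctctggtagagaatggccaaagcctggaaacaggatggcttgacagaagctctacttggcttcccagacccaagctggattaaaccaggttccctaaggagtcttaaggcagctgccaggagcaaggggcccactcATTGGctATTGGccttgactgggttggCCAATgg
Ucp1 (plus strand, chr8:83290098-83290347): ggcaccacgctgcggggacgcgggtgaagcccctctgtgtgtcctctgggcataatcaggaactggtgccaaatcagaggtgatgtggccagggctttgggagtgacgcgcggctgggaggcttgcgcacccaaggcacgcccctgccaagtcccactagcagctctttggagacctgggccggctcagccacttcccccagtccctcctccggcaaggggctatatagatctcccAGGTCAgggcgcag
Cidec (minus strand, chr6:113434765-113435014): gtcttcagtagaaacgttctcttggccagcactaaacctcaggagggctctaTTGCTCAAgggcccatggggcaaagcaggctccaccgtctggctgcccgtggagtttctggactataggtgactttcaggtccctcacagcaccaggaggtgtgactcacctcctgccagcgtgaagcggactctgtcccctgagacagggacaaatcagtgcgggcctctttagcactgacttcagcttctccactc
The Adipoq window holds 3 CCAAT matches, 34, 27, and 7 bases before the start. The Ucp1 window holds an AGGTCA match 14 bases before the start, and the Cidec window a TTGCNNAA match 198 bases before it. The Plin1 window, which is not shown, holds TTGCNNAA matches 187 and 58 bases before its start, so this motif is not particular to Cidec. A second Cidec window (chr6:113435761-113436010), before the start of the longer transcript, held 0 matches. Of all 32851 windows of this length, 33.8% hold CCAAT, 14% AGGTCA, and 9.56% TTGCNNAA, so each motif is common. A direct repeat of AGGNCA with 1 base between (DR1), in 0.338% of all windows, was in none of the 9 windows of the 7 genes, which says only that these letters are not there. A match is a description of the letters and no evidence of binding.

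Comparing CsA-pretreated with WT mice asks what CsA changes by itself and under Ang-II. Before any Ang-II, all 10 fat genes were higher in CsA than in WT aortas, by 3.72-fold (Plin1) to 5.86-fold (Cfd), and all 10 passed the test (limma, adjusted p from 0.0012 to 0.0087), beside 25.2% of all genes tested. The direction was higher for 10 of 10, beside 13.9% of all genes called higher. The 3 CsA libraries lay above the 3 WT libraries for 10 of 10 genes, as they did for 23.8% of all genes.

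Adiponectin mRNA shows the step. Adipoq read 79.6, 79.0, and 38.5 in the 3 untreated WT libraries and 276, 227, and 413 in the 3 untreated CsA libraries, a log2 difference of 2.24 ± 0.40 (SE) (adjusted p = 0.0018). The lowest CsA library was above the highest WT library. Among the other secreted products, Cfd read 376, 288, and 171 in WT and 1038, 1415, and 2541 in CsA (log2 difference 2.55 ± 0.43 (SE), adjusted p = 0.0013). Retn read 21.2, 16.9, and 6.43 in WT and 46.2, 50.4, and 102 in CsA (log2 difference 2.18 ± 0.44 (SE), adjusted p = 0.0033). Retn was the least abundant member, and its groups did not overlap either. For the lipid droplet, Plin1 went from 88.8, 87.8, and 50.9 in WT to 309, 174, and 385 in CsA (log2 difference 1.89 ± 0.39 (SE)) and Cidec from 82.7, 76.5, and 41.2 to 328, 232, and 471 (2.36 ± 0.39 (SE)). The lipase Lipe went from 88.8, 89.5, and 59.1 to 325, 196, and 388 (1.90 ± 0.38 (SE)). Droplet and lipase genes were all called, with adjusted p of 0.0035, 0.0012, and 0.0030. The carriers and enzymes of wider expression followed: Fabp4 read 509.8, 594, and 316 in WT and 1805, 1529, and 2196 in CsA (log2 difference 1.99 ± 0.36 (SE)). Car3 read 503, 511, and 260.0 and 1914, 1003, and 2397 (2.03 ± 0.39 (SE)). Of the thermogenic pair, Ucp1 read 37.8, 119, and 48.8 in WT and 410.1, 282, and 355 in CsA (log2 difference 2.50 ± 0.62 (SE), adjusted p = 0.0087), and Cidea read 55.6, 89.9, and 47.1 and 345, 178, and 292 (2.07 ± 0.46 (SE), adjusted p = 0.0050). Estimates for the brown fat pair lay within the range of the other 8, and the call of 10 members held without each of the 6 libraries in turn.

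Other genes listed for fat cells were mostly higher in the same untreated CsA libraries. The cells that held this RNA cannot be told from these bulk samples. Of 10 genes of lipolysis and the droplet surface, 8 were higher and 0 lower, among them Plin5 (log2 difference 2.76 ± 0.42 (SE), adjusted p = 0.00084), which ties droplets to mitochondria, the lipase inhibitor G0s2 (2.08 ± 0.38 (SE)), and Abhd5 (1.06 ± 0.18 (SE)), the co-activator of the first lipase. Of 19 genes of lipid uptake and synthesis, 13 were higher and 0 lower, led by Pck1 (2.36 ± 0.46 (SE)) and Gpd1 (2.27 ± 0.46 (SE)), which supply the glycerol backbone, and Dgat2 (2.08 ± 0.45 (SE)). Of 9 fat cell transcription factors, 7 were higher and 0 lower, including Cebpb (1.09 ± 0.27 (SE)) and Cebpd (0.75 ± 0.18 (SE)), which act early in fat cell formation. Of 12 genes of adipokine and hormone signaling, 6 were higher, such as the β3-adrenergic receptor Adrb3 (1.88 ± 0.39 (SE)) and the secreted factor Nrg4 (1.43 ± 0.45 (SE)), and 1, the retinol carrier Rbp4 (-0.45 ± 0.10 (SE)), was lower. Of 14 thermogenic genes, 11 were higher, led by the fatty acid elongase Elovl3 (3.49 ± 0.66 (SE)) and the cytochrome oxidase subunit Cox8b (2.46 ± 0.51 (SE)), and 1, Prdm16 (-0.42 ± 0.14 (SE)), a transcription factor of brown fat that other cells also express, was lower. The calls of Nrg4 and Prdm16 were lost without each of 4 and of 5 of the 6 libraries: Nrg4 gave an adjusted p of 0.14 without WT replicate 3, and Prdm16 of 0.14 without CsA replicate 1. The median log2 difference was 1.11, 1.38, 1.05, 1.16, and 1.98 for these 5 lists in turn, 2.13 for the 10 members, and -0.02 for all genes tested.

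Markers of other cell types moved with the fat genes in this comparison. All 6 endothelial markers were higher in untreated CsA, with a summed signal of 898 to 1030 against 347 to 584 in WT, and so were all 6 macrophage markers (243 to 316 against 92.6 to 135). Of the 6 smooth muscle markers, 5 were lower and 0 higher, with sums of 16006 to 18082 in CsA and 25023 to 34296 in WT. Of 7 adventitial fibroblast markers 0 were called, with overlapping sums of 1412 to 1607 and 1012 to 1688, and 1 of 4 Schwann cell markers, S100b, was higher. Of 8 striated muscle, 4 mesothelial, and 4 red cell markers, 0 were called by limma, and 1, 2, and 0 had an unadjusted p under 0.05. Striated muscle sums were 345 to 2289 in CsA and 365 to 803 in WT. Mesothelial sums were 36.1 to 142 in CsA and 20.1 to 29.2 in WT, without overlap. Red cell sums were 106 to 111 in CsA and 42.2 to 361 in WT. Only 1 of 5 lymphocyte markers was listed in this experiment, at a signal of 0.289 to 0.428 in untreated CsA and 0.304 to 1.16 in untreated WT. The part of these cell types in the result was not tested.

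Under Ang-II fewer fat genes passed the test between CsA and WT. After 2 h, all 10 estimates were above 0 with a median fold of 2.15 (1.38 to 2.81), and 0 of 10 were called by limma, beside 1.33% of all genes, although 6 had an unadjusted p under 0.05. Libraries did not overlap for 6 of 10, beside 9.83% of all genes. DESeq2 on the recovered reads called 3 and edgeR 0. After 24 h the median fold was 2.21, and 2 of 10 were called, beside 5.58% of all genes: Cfd (log2 difference 1.54 ± 0.43 (SE), adjusted p = 0.048) and Cidea (1.70 ± 0.46 (SE), adjusted p = 0.043). Libraries did not overlap for 9 of 10 at 24 h, beside 13.3% of all genes. Leaving out single libraries gave 0 or 1 calls in place of 2, with 0 without CsA replicate 2 or 3 or WT replicate 1 or 2 and 1 without CsA replicate 1 or WT replicate 3. The difference of the Ang-II response between CsA and WT was below 0 for 10 of 10 genes at both times, with medians of -1.07 at 2 h and -1.03 at 24 h, and 0 of 10 were called by limma at either time (lowest adjusted p 0.32 and 0.13, beside 0.146% and 9.42% of all genes). At 24 h, 2 of 10 had an unadjusted p under 0.05, and without CsA replicate 3 of 24 h, 2 were called. These comparisons share the untreated libraries with those above.

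**Figure D2:**
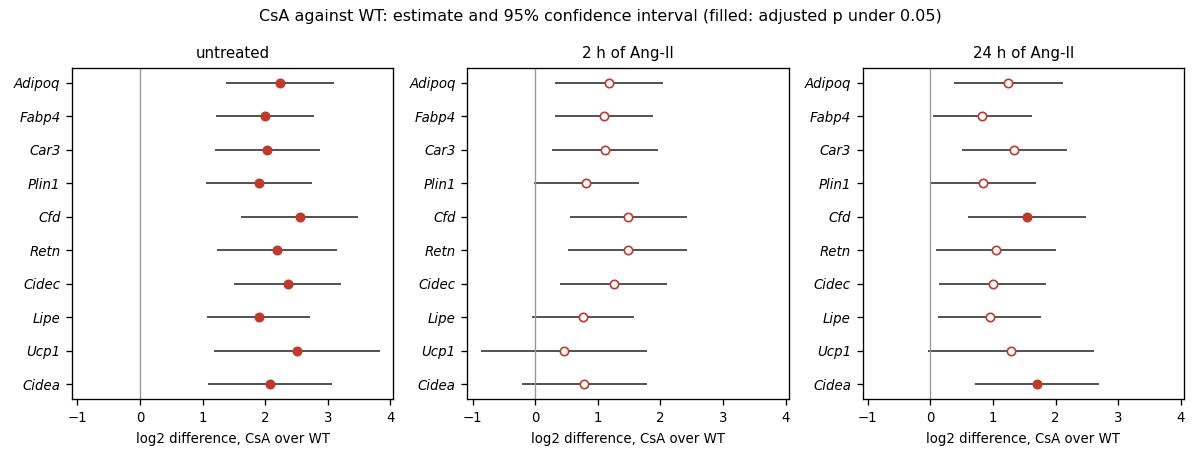
Log2 difference of each fat gene between CsA and WT (x axis) with its 95% confidence interval, from limma, in untreated mice and after 2 h and 24 h of Ang-II. Filled points passed an adjusted p of 0.05: 10 of 10 untreated, 0 of 10 at 2 h, and 2 of 10 at 24 h, and all 30 estimates are above 0.

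Genes outside the list were also compared at an equal level of fat mRNA. When the log2 level of Adipoq was added to the model as a term, the count of genes called between untreated CsA and WT went from 3464 to 0 of 13737, with 925 at an unadjusted p under 0.05, and with Plin1 as the term it was 0. At 2 h it went from 183 to 8 and at 24 h from 766 to 111, or 25 and 358 with Plin1. Adipoq itself separates untreated CsA from WT, so the term and the group run together, and the median standard error over genes went from 0.153 to 0.242. Among the 3464 genes, the median absolute log2 difference was 0.691 without the term and 0.255 with it. These genes were picked by the fit without the term, which favors large estimates in that fit. The medians therefore cannot say how much of the difference goes with the level of fat mRNA. Of the other 9 members, 0 were called at an equal Adipoq level (0% of all genes), with estimates from -0.20 to 0.40. Adipoq is itself a measured outcome, so a difference at an equal Adipoq level describes a gene relative to Adipoq and does not remove fat from the data.

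Within WT mice, the question was what Ang-II does over hours. At 2 h, 0 of 10 fat genes were called by limma, beside 21.4% of all genes, 0 at an unadjusted p under 0.05, and 0 by edgeR and DESeq2. The 10 estimates were all above 0, with a median fold of 1.43 and up to 2.19. At 24 h, 3 were called higher, beside 18.1% of all genes called higher. Retn went from 21.2, 16.9, and 6.43 in untreated WT to 34.7, 32.2, and 38.0 at 24 h (log2 change 1.36 ± 0.44 (SE), adjusted p = 0.025). Cidec went from 82.7, 76.5, and 41.2 to 144, 127, and 147 (1.12 ± 0.39 (SE), adjusted p = 0.037). Fabp4 went from 509.8, 594, and 316 to 832, 822, and 1040 (0.96 ± 0.36 (SE), adjusted p = 0.049). Untreated WT replicate 3 was the lowest of its group for these 3 genes and for Adipoq, and without it, or without any single 24 h library, 0 members were called. A share of 3 in 10 is near that of all genes, since 35.0% of all genes were called at 24 h in either direction. In the same comparison all 6 macrophage markers and 2 of 6 endothelial markers were higher, with macrophage sums of 242 to 356 after 92.6 to 135 untreated and endothelial sums of 613 to 730.2 after 347 to 584, and their part in the result was not tested. Of the pathway lists, 1 of 10 lipolysis, 0 of 19 lipid synthesis, 2 of 9 transcription factor, 2 of 12 hormone signaling, and 1 of 14 thermogenic genes were called higher, and 1, 1, 2, 2, and 0 lower.

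Adipoq itself was not called at 24 h (79.6, 79.0, and 38.5 before and 84.3, 79.1, and 74.0 after, adjusted p = 0.56). At an equal Adipoq level, 4 of the other 9 genes were called in WT at 24 h, beside 36.0% of all genes: Cidec (0.80 ± 0.11 (SE), adjusted p = 8.0e-05), Retn (1.02 ± 0.19 (SE), adjusted p = 0.00081), and Fabp4 (0.68 ± 0.14 (SE), adjusted p = 0.0017) were higher, and Cidea (-1.21 ± 0.29 (SE), adjusted p = 0.0039) was lower. All 4 calls held without each of the 6 libraries in turn and with Plin1 as the term. Car3, Plin1, and Lipe were not called (-0.13, 0.06, and 0.10), with 95% intervals from -0.47 to 0.20, from -0.20 to 0.32, and from -0.19 to 0.39. Cfd and Ucp1 were not called either. Ucp1, the other brown fat gene, did not fall with Cidea: over Adipoq it was 0.475 to 1.51 untreated and 0.993 to 2.03 at 24 h. Over Cidea it was 0.680 to 1.33 untreated and 3.08 to 3.38 at 24 h. So Cidec, Retn, and Fabp4 gained on adiponectin while Cidea fell behind, a share of 4 in 9 not far from that of all genes.

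In CsA mice, 0 of 10 fat genes were called at 2 h or at 24 h of Ang-II by limma, beside 20.1% and 8.98% of all genes, and 1 and 1 had an unadjusted p under 0.05. Estimates were below 0 for 10 of 10 genes at 2 h (median -0.58) and for 9 of 10 at 24 h (median -0.47), Retn being the exception at 0.23. Leaving out CsA replicate 1 of 2 h gave 1 call at 2 h, and leaving out replicate 3 of 24 h gave 1 at 24 h. At 2 h, 5 of 8 striated muscle, 4 of 4 mesothelial, and 3 of 6 macrophage markers were lower, and their part in these values was not tested. Relative to Adipoq, Retn was higher at 24 h (0.89 ± 0.20 (SE), adjusted p = 0.019, beside 6.73% of all genes), a call lost without untreated replicate 1 or 2 or 24 h replicate 2 or 3 (adjusted p up to 0.082). Cidec (0.38 ± 0.12 (SE), adjusted p = 0.073) and Cidea (-0.67 ± 0.30 (SE), adjusted p = 0.20) had the same signs as in WT and did not pass the test. The difference of these changes between CsA and WT was not called for any of the 9 genes, beside 4.07% of all genes.

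**Figure D3:**
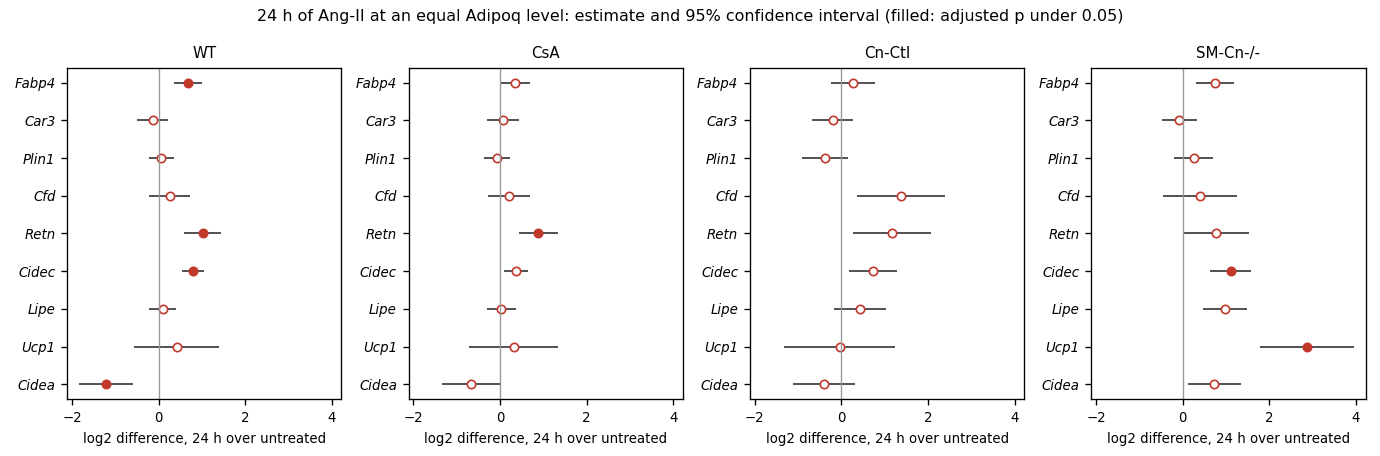
Log2 change of the other 9 fat genes after 24 h of Ang-II at an equal Adipoq level (x axis), with 95% confidence intervals from limma, within WT, CsA, Cn-Ctl, and SM-Cn-/- mice. Filled points passed an adjusted p of 0.05: Fabp4, Retn, Cidec, and Cidea in WT, Retn in CsA, none in Cn-Ctl, and Cidec and Ucp1 in SM-Cn-/-.

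The ratio of Cidea to Cidec, relatives that differ in being typical of brown fat and of large white droplets, compares them within a library. It was picked after its values were seen and has no test. It was 0.672, 1.18, and 1.14 in untreated WT and 0.189, 0.216, and 0.323 at 24 h. In CsA mice it was 1.05, 0.765, and 0.620 untreated and 0.435, 0.279, and 0.481 at 24 h. No library at 24 h reached the lowest untreated library of its own group in either pretreatment. In Cn-Ctl mice it was 1.52 and 2.90 untreated and 0.657 and 1.45 at 24 h, and in SM-Cn-/- mice 2.70, 1.76, and 2.33 and 1.45, 1.56, and 1.65. There too the libraries at 24 h lay below the untreated ones without overlap. Cidea over Adipoq did not move alike in these sets. In WT it was 0.698 to 1.22 untreated and 0.322 to 0.643 at 24 h. In SM-Cn-/- mice it was higher at 24 h, at 1.24 to 1.99 after 0.969 to 1.08, so the ratio to Cidec fell while Cidea gained on Adipoq. In CsA (0.707 to 1.25 and 0.422 to 0.708) and Cn-Ctl (1.03 to 1.41 and 0.639 to 1.33) untreated and 24 h libraries overlapped. At 2 h the WT, CsA, and Cn-Ctl ratios overlapped the untreated ones, at 0.936, 1.51, and 1.11 in WT, 0.800, 0.861, and 0.850 in CsA, and 3.22, 2.69, and 1.38 in Cn-Ctl. In SM-Cn-/- mice the ratios were already below the untreated ones at 2 h (1.49, 1.69, and 1.16) and at 6 h (1.51, 1.34, and 1.41), and in Cn-Ctl they were so at 6 h (1.51, 1.35, and 1.11).

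**Figure D4:**
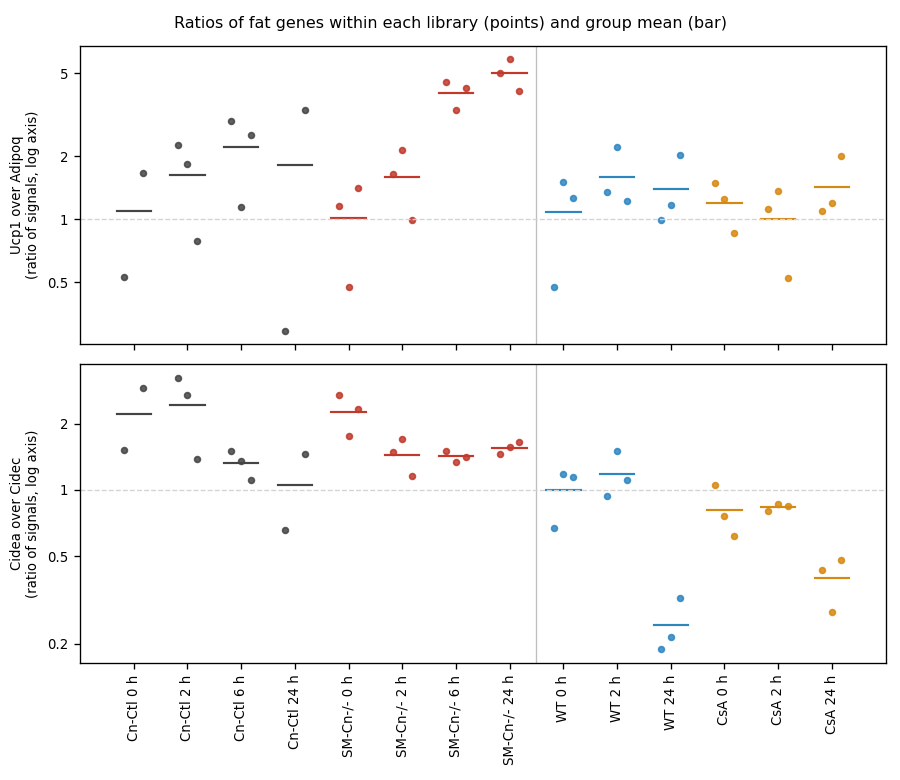
Ratios of signals within each library (points, log axis) with the mean of the group (bar): Ucp1 over Adipoq (top) and Cidea over Cidec (bottom). The dashed line marks a ratio of 1 and the gray line parts the genotype from the CsA experiment. Ucp1 over Adipoq lies above the untreated libraries in SM-Cn-/- at 6 h and 24 h (3.31 to 5.82), and Cidea over Cidec is lowest in WT at 24 h.

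In the genotype experiment the fat genes varied widely between replicate pools. The standard deviation of the mean log2 level of the 10 genes within groups was 0.714, against 0.550 in the CsA experiment. Adipoq read 54.4 and 89.2 in untreated Cn-Ctl and 332, 66.0, and 233 in untreated SM-Cn-/- libraries. Replicate 2 of SM-Cn-/- sat inside the Cn-Ctl range and the other 2 were far above it. The untreated difference was above 0 for 10 of 10 genes, with a median fold of 2.15 (median log2 1.11, and from 0.64 without SM-Cn-/- replicate 1 to 1.78 without SM-Cn-/- replicate 2), and 0 were called by limma (lowest adjusted p 0.77, 4 at an unadjusted p under 0.05, 0 by edgeR and DESeq2), beside 0.0139% of all genes. At 2 h and 6 h of Ang-II the median folds of SM-Cn-/- over Cn-Ctl were 1.07 and 1.06 with 0 calls by limma (beside 3.70% and 1.98% of all genes, and 0 and 0 members at an unadjusted p under 0.05). At 24 h the median fold of SM-Cn-/- over Cn-Ctl was 1.65, again with 0 calls by limma, beside 4.94% of all genes, 3 at an unadjusted p under 0.05, and 1 call without Cn-Ctl replicate 3 of 24 h, where the median log2 went from 0.72 to 1.34. Cn-Ctl at 24 h rests on 2 libraries that stood apart: Adipoq read 50.3 and 119.7 and Ucp1 14.8 and 399.8. In untreated SM-Cn-/- libraries the 6 endothelial markers summed to 549 to 724, against 314 to 427 in Cn-Ctl, and the smooth muscle markers to 20344 to 23766, against 27848 to 28363. At 24 h the endothelial markers summed to 1059 to 1127 in SM-Cn-/- and 444 to 469 in Cn-Ctl, with 2 of 6 called higher, the smooth muscle markers to 23806 to 26578 and 27073 to 48686, with 1 of 6 called lower, and the macrophage markers to 146 to 261 and 195 to 279.9. The part of these cell types in the fat gene values, and in those of Ucp1, Cidec, and Plin1 relative to Adipoq, was not tested.

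Ang-II moved no fat gene past the test within either genotype. In Cn-Ctl, 0 of 10 were called by limma at 2, 6, or 24 h, beside 6.23%, 3.97%, and 5.62% of all genes, and 0, 1, and 2 had an unadjusted p under 0.05. In SM-Cn-/- mice the 10 estimates at 2 h were all below 0, with log2 changes from -1.63 to -0.64, and 0 were called, beside 1.13% of all genes, while 7 had an unadjusted p under 0.05. This result turns on untreated SM-Cn-/- replicate 2. Without it 4 of 10 were called at 2 h and 3 at 6 h, and DESeq2 and edgeR called 3 and 1 at 2 h with all libraries. Adipoq read 88.9, 54.0, and 51.6 at 2 h, 74.8, 67.4, and 123 at 6 h, and 103, 150.2, and 104 at 24 h, so all treated libraries lay below the 2 high untreated ones. At 6 h and 24 h, 0 were called, beside 2.34% and 0.790% of all genes, with 3 and 0 at an unadjusted p under 0.05. The difference of the Ang-II response between SM-Cn-/- and Cn-Ctl was not called for any of the 10 genes at 2, 6, or 24 h (lowest adjusted p 0.52, beside 0.513%, 0.0624%, and 0.513% of all genes).

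Ucp1 parted from adiponectin in SM-Cn-/- mice. It read 386, 31.3, and 331 untreated, 146, 116, and 51.1 at 2 h, 338, 223, and 522 at 6 h, and 513, 875, and 425 at 24 h. Replicate 2 alone was low among the untreated libraries, and the plain test gave an adjusted p of 0.62 at 6 h and 0.49 at 24 h. Over Adipoq, Ucp1 was 1.16, 0.474, and 1.42 untreated, 4.52, 3.31, and 4.26 at 6 h, and 5.01, 5.82, and 4.10 at 24 h, so that every library at 6 h and 24 h lay above every untreated library. At an equal Adipoq level its log2 change was 2.95 ± 0.54 (SE) at 6 h (adjusted p = 0.0077) and 2.88 ± 0.51 (SE) at 24 h (adjusted p = 0.010), beside 1.11% and 0.777% of all genes. Without untreated SM-Cn-/- replicate 2, whose Ucp1 was lowest, the estimates were 3.22 and 3.10 with adjusted p of 0.14 and 0.16, and with Plin1 as the term the 24 h estimate was 2.30 with an adjusted p of 0.063. In Cn-Ctl mice the same changes were 1.16 ± 0.55 (SE) at 6 h and -0.04 ± 0.60 (SE) at 24 h and were not called (adjusted p = 0.28 and 0.98, beside 5.82% of all genes at 24 h), and the 2 libraries at 24 h stood apart with ratios to Adipoq of 0.294 and 3.34. The difference between genotypes was 1.79 ± 0.77 (SE) at 6 h and 2.92 ± 0.80 (SE) at 24 h with adjusted p of 0.72 and 0.11, beside 0.0555% and 0.499% of all genes, so a genotype difference was not called. In the CsA experiment Ucp1 over Adipoq stayed between 0.475 and 2.21.

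Cidec, the droplet fusion gene, gained on Adipoq in the genotype experiment as it had in WT. In SM-Cn-/- mice its ratio to Adipoq was 0.381, 0.551, and 0.466 untreated and 0.852, 1.17, and 1.21 at 24 h, and the log2 change at an equal Adipoq level was 1.10 ± 0.21 (SE) (adjusted p = 0.017). In Cn-Ctl mice the ratio was 0.679 and 0.488 untreated, 0.877, 0.920, and 1.56 at 6 h, and 0.972 and 0.916 at 24 h, with a called change of 0.89 ± 0.23 (SE) at 6 h (adjusted p = 0.029, beside 4.38% of all genes) and an uncalled one of 0.73 ± 0.25 (SE) at 24 h (adjusted p = 0.096). The treated libraries lay above the untreated ones in each of these sets. Each of the 2 calls was lost without 1 of 3 libraries: in SM-Cn-/- without untreated replicate 2 or 24 h replicate 2 or 3 (adjusted p up to 0.27), and in Cn-Ctl without either untreated library or 6 h replicate 3 (up to 0.34). With Plin1 as the term, 3 members were called in Cn-Ctl at 24 h and 0 in SM-Cn-/- at 24 h, so these counts depend on the fat gene used as the term. Between genotypes at 24 h, Plin1 was higher in SM-Cn-/- at an equal Adipoq level (0.84 ± 0.23 (SE), adjusted p = 0.035, beside 4.85% of all genes), from ratios to Adipoq of 0.797, 0.795, and 0.681 against 0.528 and 0.360, a call lost without Cn-Ctl replicate 3 (adjusted p = 0.53) or SM-Cn-/- replicate 1 or 2.

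Among the 64 other fat and thermogenic genes of the pathway lists, Dio2 had the largest called change with Ang-II. Dio2 encodes the deiodinase that activates thyroid hormone in brown fat and in some other cells. It read 10.7 and 19.1 in untreated Cn-Ctl, 38.8, 45.5, and 79.2 at 2 h, 154, 48.3, and 70.1 at 6 h, and 103 and 144 at 24 h. Each treated Cn-Ctl library lay above the untreated ones, of which there are only 2. The log2 changes were 1.82 ± 0.44 (SE), 2.45 ± 0.44 (SE), and 3.05 ± 0.48 (SE) (adjusted p = 0.013, 0.0018, and 0.00075, beside 6.23%, 3.97%, and 5.62% of all genes). Without untreated replicate 2 the adjusted p was 0.22 at 2 h and 0.079 at 6 h, without replicate 3 of 2 h it was 0.062 at 2 h, and with only the groups compared 0.064 at 6 h. In SM-Cn-/- mice Dio2 read 37.0, 12.1, and 24.6 untreated and 70.5, 76.1, and 56.3 at 24 h (log2 change 1.57 ± 0.39 (SE), adjusted p = 0.068), and the difference between genotypes was not called (adjusted p = 0.37 at 24 h). In WT it went from 30.6, 28.1, and 22.3 to 175, 265, and 156 at 24 h (2.83 ± 0.43 (SE), adjusted p = 0.00012). In CsA mice it started higher, at 96.4, 46.6, and 78.0, and read 87.9, 50.9, and 108 at 24 h (0.15 ± 0.43 (SE), adjusted p = 0.85). The CsA and WT responses at 24 h differed by -2.68 ± 0.61 (SE) (adjusted p = 0.015). With the Adipoq term that difference was -1.95 (adjusted p = 0.040).

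**Figure D5:**
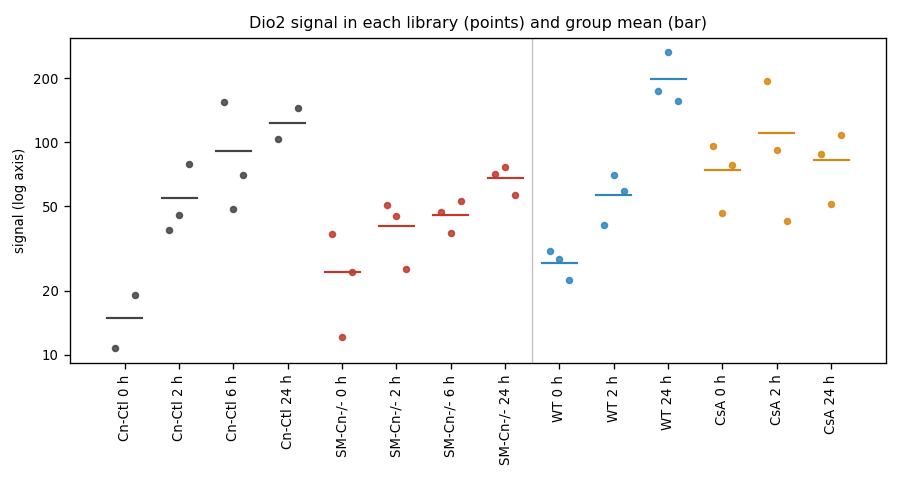
Dio2 signal (log axis) in each library (points) with the mean of the group (bar), and the genotype experiment to the left of the gray line. Dio2 is higher at 24 h than untreated in all Cn-Ctl, SM-Cn-/-, and WT libraries, and CsA libraries overlap at all times.

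Several regulators of fat cell formation that other aortic cells also express were called under Ang-II. Cebpd, which acts early in fat cell formation and in inflammation, was called in 11 of 22 comparisons, which share libraries. Cebpd is named here because of that count, so the count is no separate result. It went from 5.61 and 9.22 to 32.4, 30.3, and 25.5 in Cn-Ctl at 2 h (1.95 ± 0.28 (SE), adjusted p = 7.4e-05) and from 29.5, 31.4, and 31.0 to 91.6, 116, and 90.4 in WT (1.67 ± 0.18 (SE), adjusted p = 9.1e-06). At 2 h it read 12.4, 14.4, and 18.2 in SM-Cn-/- mice, below Cn-Ctl (-0.96 ± 0.25 (SE), adjusted p = 0.031, lost without each of 4 libraries, with quantile normalization, and with only the groups compared). Klf15, a glucocorticoid-responsive factor of fat and muscle, read 34.7, 55.0, and 24.1 in untreated SM-Cn-/- and 95.0, 116, and 105 at 6 h (1.54 ± 0.24 (SE), adjusted p = 0.0012). In WT it went up at 2 h (0.78 ± 0.11 (SE), adjusted p = 0.00016) and down at 24 h (-0.45 ± 0.11 (SE), adjusted p = 0.0065). Cebpb rose in WT at 2 h (1.77 ± 0.27 (SE), adjusted p = 0.00021), and the receptor partner Rxra fell (-0.41 ± 0.09 (SE), adjusted p = 0.0051). In the 2 h comparison of WT, 3 of the 9 factors were called higher and 1 lower, beside 21.4% of all genes.

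Of the hormone signaling genes, Adrb3 was called lower after 2 h in SM-Cn-/- and CsA mice, beside 1.13% and 20.1% of all genes. Adrb3 encodes the β3-adrenergic receptor, through which norepinephrine drives lipolysis and heat production in fat. It read 59.5, 22.6, and 53.1 in untreated SM-Cn-/- and 8.48, 4.12, and 9.13 at 2 h (-2.51 ± 0.45 (SE), adjusted p = 0.0047). In CsA mice it read 61.2, 56.5, and 75.4 untreated and 29.7, 23.0, and 18.2 at 2 h (-1.44 ± 0.39 (SE), adjusted p = 0.016, up to 0.061 with a library left out). All treated libraries of these sets lay below the untreated ones. With the Adipoq term the changes were -1.62 (adjusted p = 0.12) and -0.98 (adjusted p = 0.014). In Cn-Ctl at 2 h Adrb3 read 8.08, 5.75, and 5.89 after 14.8 and 18.3 untreated (-1.28 ± 0.50 (SE), adjusted p = 0.15). The difference of the 2 h response was not called by limma between genotypes or between CsA and WT. In SM-Cn-/- mice Adrb3 was also called lower at 6 h. Leaving out single libraries gave log2 changes from -2.67 to -1.90 there (limma, adjusted p up to 0.064). The leptin receptor Lepr fell in WT at 24 h (-0.96 ± 0.14 (SE), adjusted p = 8.9e-05), and so did Rbp4 (-0.68 ± 0.10 (SE), adjusted p = 0.00011). Of the lipid genes, Plin4, a droplet coat protein also made in muscle, rose in WT at 2 h (0.59 ± 0.15 (SE), adjusted p = 0.011), where quantile normalization gave 0.13 (adjusted p = 0.55). Lpin1, the phosphatidate phosphatase of triglyceride synthesis, was higher in SM-Cn-/- than in Cn-Ctl at 24 h (1.17 ± 0.26 (SE), adjusted p = 0.0082), with adjusted p = 0.12 without Cn-Ctl replicate 3.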

How the data were processed

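Aortic RNA of 40 libraries (22 in the genotype experiment, 18 in the CsA experiment) was analysed from the normalized tables. Per the methods, RNA was reverse-transcribed with oligo-dT priming, and per the submitters' processing notes reads were aligned with Bowtie 0.12.7 and quantified with RSEM 1.16 on GRCm38. The signal values deposited by the authors are the assigned reads plus 0.5 divided by a scaled library size. This was read from the values: 100% converted to whole reads within 0.01. The authors' scaling is thus part of every value. The untreated and 24 h Cn-Ctl groups have 2 libraries each.

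Log2 of signal plus a pseudocount of 0.5 was fitted with limma 3.58.1 (R 4.3.3), fitting each experiment once with group means and an intensity trend, over protein-coding genes (GENCODE release M21, GRCm38) with a signal of at least 1 in at least 2 libraries (14424 and 13738 genes), with Benjamini-Hochberg adjustment over all genes tested. A gene was called at an adjusted p under 0.05, and fold changes are on this scale. In all, 22 comparisons were made. Libraries that do not overlap are set beside the share of all genes only between CsA and WT. Elsewhere non-overlap describes the values printed, in groups of 2 or 3 libraries, and is no test. A second fit added the log2 Adipoq level of the library as a term ("at an equal Adipoq level"), with Plin1 as the alternative. Alternatives were edgeR 4.0.16 and DESeq2 1.42.0 on the recovered reads, and other pseudocounts, scalings, filters, gene sets, and left-out libraries. Levels between genes were compared per kilobase of annotated exon (Python 3.11.15). On simulated reads, the fit found 60 of 200 genes changed 2-fold and 200 of 200 changed 4-fold for untreated against 2 h Cn-Ctl (14424 genes), and 193 and 200 of 200 for untreated against 2 h WT (13738 genes), with 0 in the wrong direction. So 2-fold changes are often missed in the genotype experiment. The simulated reads had a fixed spread set for each experiment, and only genes above a set mean read count were changed. The spread was not that of the fat genes, whose mean log2 level had a standard deviation within groups of 0.71 (genotype) and 0.55 (CsA). These rates therefore cannot say how often a fat gene change would be found in either experiment.

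Nothing in the sources says whether the pools of a group share a litter or day, so p-values measure only the spread between these pools. That spread exceeded counting error (chi-square over its degrees of freedom, 6.47 or more). The members, lists, and tests were chosen with earlier results of these data known. The genes named are the 10 members, up to 4 genes per pathway list called in most comparisons (ties by size), and the 5 non-members most like Adipoq in each experiment, of which 1 is not reported here. Motif and promoter sequences are from RefSeq (GRCm38.p6). Genes of other cell types are given by list. S100b, Ppp3r1, and the ratios were chosen after their values were seen.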

Additional observations from a re-analysis of the deposited data

Results flagged for a closer look

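Of the fat genes, none responded to Ang-II differently between CsA and WT or between genotypes by a test of the difference. Of the pathway genes named, 4 did so between CsA and WT after 24 h of Ang-II, beside 9.42% of all genes. The test was limma's for the difference of the log2 changes. The pathway genes were named for their calls over all comparisons, this one among them, so the count of 4 is no evidence about the lists. The difference was -2.68 for Dio2 (adjusted p = 0.015), which held without each of the 12 libraries in turn. It was -0.96 for Cebpd (adjusted p = 0.029), which went from 29.5, 31.4, and 31.0 to 79.4, 135, and 95.4 in WT and from 55.2, 51.5, and 49.5 to 74.7, 87.2, and 101 in CsA, and adjusted p reached 0.080 when a library was left out. For Cebpb it was -1.25 (adjusted p = 0.048, up to 0.13 when a library was left out). For Rbp4 it was 0.78 (adjusted p = 0.0069, up to 0.024 when a library was left out). With the Adipoq term the differences of Cebpd and Cebpb were -0.98 and -1.04, with adjusted p of 0.063 and 0.15. In this comparison 5 of 6 macrophage and 4 of 6 endothelial markers were called lower, and their part in it was not tested.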

How the results depend on the processing

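No called result changed direction under any alternative. The call of 10 of 10 members between untreated CsA and WT held under all alternatives and left-out libraries. Counts of members called moved as follows. In SM-Cn-/- at 2 h, 0 became 1 with the replicate block, 1 with edgeR, and 3 with DESeq2. In SM-Cn-/- against Cn-Ctl at 24 h, 0 became 1 with only the groups compared. In WT at 24 h, 3 became 1 with the replicate block and 1 with edgeR. In CsA at 2 h, 0 became 1 with quantile normalization. In CsA against WT at 2 h, 0 became 3 with DESeq2, and at 24 h, 2 became 1 with all listed genes, 0 with the replicate block, 0 with only the groups compared, and 4 with DESeq2. At an equal Adipoq level, Cn-Ctl at 6 h went from 1 to 0 with Plin1 and 0 with no term, Cn-Ctl at 24 h from 0 to 3 with Plin1, SM-Cn-/- at 6 h from 1 to 0 with no term, SM-Cn-/- at 24 h from 2 to 0 with either, SM-Cn-/- against Cn-Ctl at 24 h from 1 to 0 with either, CsA at 24 h from 1 to 0 with either, and with no term CsA against WT went from 0 to 9 untreated and from 0 to 2 at 24 h. With a library left out, counts ranged from 0 to 1 in Cn-Ctl at 6 h, 0 to 4 in SM-Cn-/- at 2 h, 0 to 3 in SM-Cn-/- at 6 h, 0 to 1 between genotypes at 24 h, 0 to 2 in WT at 24 h, 0 to 1 in CsA at 2 h and at 24 h, 0 to 1 in CsA against WT at 24 h, and 0 to 2 for the difference of the CsA and WT responses at 24 h. The median log2 change of the members ranged from -0.43 (without replicate 3 of 24 h) to 1.24 (without replicate 2) in Cn-Ctl at 24 h, where it was 0.33, and reached -1.93 without untreated replicate 2 in SM-Cn-/- at 2 h, where it was -1.21. Without that library it went from 0.18 to -0.48 in SM-Cn-/- at 24 h, from 1.11 to 1.78 between untreated genotypes, and from -0.93 to -1.61 and from -0.97 to -1.60 for the genotype difference in response at 2 h and 6 h. At 24 h that difference ranged from -0.79 to 0.35, where it was -0.19. The cause was not tested. Of counts over all genes, 38 of 220 moved by over 1.5 times under an alternative and 89 of 152 with a library left out.

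Replicate numbers are shared between groups, but they pair no mice per the labels: deviations of same-numbered libraries correlated from -0.374 to 0.339 (genotype) and from -0.389 to 0.377 (CsA), so the block is given here and the counts it moved are those above. In the genotype experiment the 5 members with the fewest reads rest on 55 to 131 reads in their lowest library.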
